A study of Mus musculus with 18 samples.

Results

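The mitochondrially encoded genes were taken as every row of the deposited nascent RNA count table whose mouse symbol begins with mt-. They were 37 of 54232 listed genes, made up of 2 rRNA, 13 mRNA and 22 tRNA genes, and each was measured in all 18 libraries.

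The mitochondrial genome is a small circle transcribed by its own polymerase, POLRMT, with the factors TFAM and TFB2M. Both strands are read as long precursors that are then cut, largely at the tRNAs that lie between the other genes, into 2 rRNAs, the mRNAs and the tRNAs. The mRNAs encode subunits of respiratory complexes I, III and IV and of ATP synthase, and the rRNAs form the core of the mitochondrial ribosome. In erythroid cells mitochondria carry out the first and last steps of heme synthesis, and they are cleared as reticulocytes mature.

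The assay was 4sU-seq. Cells build the uridine analogue 4-thiouridine (4sU) into the RNA they are making, and that RNA is then coupled to biotin and purified. Livers were taken from C57BL/6 mouse embryos at e12.5 to e13.5. Sorted cells had 6 h of rest before 45 min in 500 µM 4sU. There were 3 libraries for each of 6 populations, and no allele or drug distinguished them. The lineage-negative populations were S0-Low (CD71-, Ter119-), S0-Medium (CD71 medium, Ter119-), S1 (CD71 high, Ter119-), S2 (CD71 high, Ter119 medium) and S3 (CD71 high, Ter119 high), in the order in which erythroid cells mature. CD71 is the transferrin receptor and Ter119 is an erythroid surface marker. Lin+ cells had bound at least 1 antibody of a panel against other blood lineages. The study calls its replicates biological, and the labels do not say whether those of a population came from separate litters. The p-values measure the spread between these libraries.

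Totals ranged from 9452476 counts (S0-Low replicate 3) to 40567976. The summed level of 11 erythroid marker genes was 558 to 1420 CPM (counts per 1000000 of a library's total) in S0-Low and 24300 to 31400 CPM in S3. Lin+ carried the same erythroblast label but held only 338 to 415 CPM of these markers, and 4330 to 6370 CPM of 8 neutrophil and monocyte markers, against 546 to 880 CPM in S0-Low and at most 0.916 CPM in S3. Lin+ also held 1090 to 1850 CPM of 7 stem and progenitor markers, near the 1220 to 1820 CPM of S0-Low. Megakaryocyte markers came to 353 to 871 CPM in Lin+ and 88.8 to 228 CPM in S0-Low. Itgam, among the 8 neutrophil and monocyte markers, had no count in Lin+. There was no library from unlabelled cells, so the share of older RNA carried through the purification was not measured. The library kit also cleaves cDNA of mitochondrial rRNA, so for mt-Rnr1 and mt-Rnr2 the RNA level and the completeness of that cleavage cannot be told apart.

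The mitochondrial genome has near-identical copies in the nuclear genome, and a read from such a stretch can be assigned to either. In the mm9 reference, chr1:24618374-24623023 on the minus strand copies chrM:6394-11042, from within mt-Co1 to within mt-Nd4, with 99.98% identity. The only differences are 1 base and 1 additional nuclear base, the latter within mt-Tr. The differing base is T9461C, counted on the mitochondrial genome (mitochondrial base first), and is base 3 of mt-Nd3, a complex I subunit gene. Both sequences of 61 bases are shown because this single base is all that separates mt-Nd3 from the copy. The first is chrM:9431-9491 and the second chr1:24619926-24619986 (minus strand), with the differing base in capitals.
mt-Nd3 start, mitochondrial: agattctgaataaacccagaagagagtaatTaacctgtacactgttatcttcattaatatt
mt-Nd3 start, chr1 copy: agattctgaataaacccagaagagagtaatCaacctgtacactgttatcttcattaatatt

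The 5 tRNA genes printed next carried the most counts among tRNA genes (4 genes, each with a median over 100 counts per library) or none at all (mt-Ts2, for a serine tRNA). They are given 5′ to 3′ on the gene's own strand, from mm9, with capitals at the T positions where the RNA has a uridine that 4sU can replace. The genes are mt-Tp (proline, chrM:15356-15422, minus strand), mt-Tt (threonine, chrM:15289-15355, plus strand), mt-Tq (glutamine, chrM:3772-3842, minus strand), mt-Tw (tryptophan, chrM:4950-5016, plus strand) and mt-Ts2 (chrM:11613-11671, plus strand).
mt-Tp: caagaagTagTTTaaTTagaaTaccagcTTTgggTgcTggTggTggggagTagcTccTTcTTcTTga
mt-Tt: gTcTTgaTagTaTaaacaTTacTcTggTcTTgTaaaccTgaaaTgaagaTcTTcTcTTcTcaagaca
mt-Tq: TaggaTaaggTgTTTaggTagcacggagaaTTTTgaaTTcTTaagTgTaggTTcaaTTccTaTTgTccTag
mt-Tw: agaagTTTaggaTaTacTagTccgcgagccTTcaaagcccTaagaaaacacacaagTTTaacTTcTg
mt-Ts2: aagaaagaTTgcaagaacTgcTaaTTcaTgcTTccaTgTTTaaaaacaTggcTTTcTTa

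Uridine made up 32.8% of mt-Tp, 34.3% of mt-Tt, 36.6% of mt-Tq, 23.9% of mt-Tw and 32.2% of mt-Ts2. Over all tRNA genes the share ran from 23.9% to 39.1%, and over both rRNA genes it was 26.4%. Over the 12 mRNA genes encoded on the heavy strand it ran from 27.4% to 32.8%. For mt-Nd6, the mRNA gene on the light strand, it was 43.7%, the highest of all these genes.

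Mitochondrial genes took between 1.53% and 7.33% of all counts in a library, with the highest mean in S1 and the lowest in S3. For S0-Low the shares of replicates 1, 2 and 3 were 3.95%, 4.26% and 4.51%, for S0-Medium 3.12%, 4.43% and 6.21%, and for S1 6.95%, 6.39% and 6.03%. For the Ter119-positive cells they were 7.33%, 4.48% and 4.60% (S2) and 2.93%, 2.05% and 1.53% (S3), and for Lin+ 4.50%, 3.55% and 2.59%. All 3 S3 libraries lay below every S0-Low, S0-Medium, S1 and S2 library, while S3 and Lin+ overlapped. The mean share was 4.24% ± 0.282 (SD, n = 3) in S0-Low, 6.46% ± 0.464 in S1 and 2.17% ± 0.709 in S3. Since these are bulk libraries, fewer cells of a type and less RNA per cell cannot be told apart. The shares are sums over all 37 genes and were given no test. The mean S3 share was 0.512 of the S0-Low mean and 0.396 of the S2 mean. With genes scaled by library totals, as here, the median log2 difference of all tested genes was -1.36 for S3 against S0-Low. For S3 against S2 that median was -0.82.

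The mRNA genes alone separated S3 more widely. S0-Low libraries gave them 0.948%, 1.70% and 1.36% of all counts, S0-Medium libraries 1.04%, 1.82% and 1.45%, and S1 libraries 1.91%, 2.75% and 1.46%. S2 libraries gave them 1.90%, 1.88% and 0.827%, S3 libraries 0.379%, 0.468% and 0.178%, and Lin+ libraries 1.07%, 1.34% and 0.741%. The highest S3 library (0.468%) was below the lowest of the other 15 (0.741%). The mean was 1.53% ± 0.613 in S2 and 0.342% ± 0.149 in S3 (SD, n = 3 each), a ratio of S2 to S3 of 4.49. Between same-numbered replicates S3 held 0.200, 0.249 and 0.215 of the S2 share. The S1 mean was 5.97 times, the S0-Low mean 3.91 times and the Lin+ mean 3.07 times that of S3. On the same scale the median log2 difference of all tested genes was 1.47 for Lin+ against S3. Those for S0-Low and S2 are given above.

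**Figure D1:**
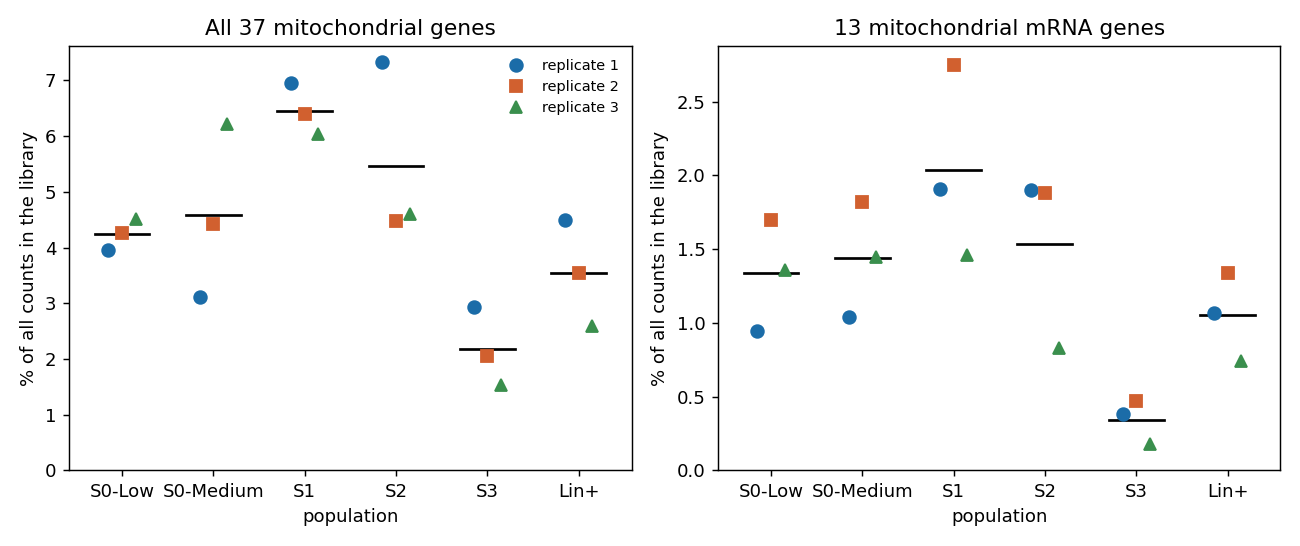
Share of all counts (%, linear axis) on the 37 mitochondrial genes (left) and on the 13 mitochondrial mRNA genes (right) in each library, by population; colours and shapes give the replicate number and the bar is the mean of 3 libraries. In the right panel the S3 libraries, at most 0.468%, lie below all 15 others.

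The rRNA genes took most mitochondrial counts in every library, and their part was largest in S3. The mean rRNA share of all counts was 2.90% ± 0.315 for S0-Low, 3.14% ± 1.42 for S0-Medium, 4.41% ± 0.713 for S1, 3.93% ± 1.43 for S2, 1.83% ± 0.637 for S3 and 2.49% ± 0.829 for Lin+ (SD, n = 3 each). The S2 mean was 2.15 times the S3 mean, against 4.49 times for the mRNA genes. The highest S3 library (2.55%) lay just below the lowest S2 library (2.59%), and S3 overlapped S0-Low.

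As a part of the mitochondrial counts, rRNA genes made up 75.9%, 59.8% and 69.8% of S0-Low, 66.6%, 58.6% and 76.5% of S0-Medium, 72.4%, 56.8% and 75.7% of S1, and 74.1%, 57.8% and 82.0% of S2 libraries. In S3 they took 87.0%, 77.1% and 88.3%, above every S0-Low and S1 library but overlapping S2. They took 76.2%, 62.1% and 71.3% in Lin+, all below S3. There were 5.89 rRNA counts per mRNA count on average in S3 and 2.94 in S2, and the ratio of S3 to S2 was 2.34, 2.45 and 1.66 for replicates 1, 2 and 3. Cleavage of rRNA cDNA bears on this ratio, and its part was not tested.

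**Figure D2:**
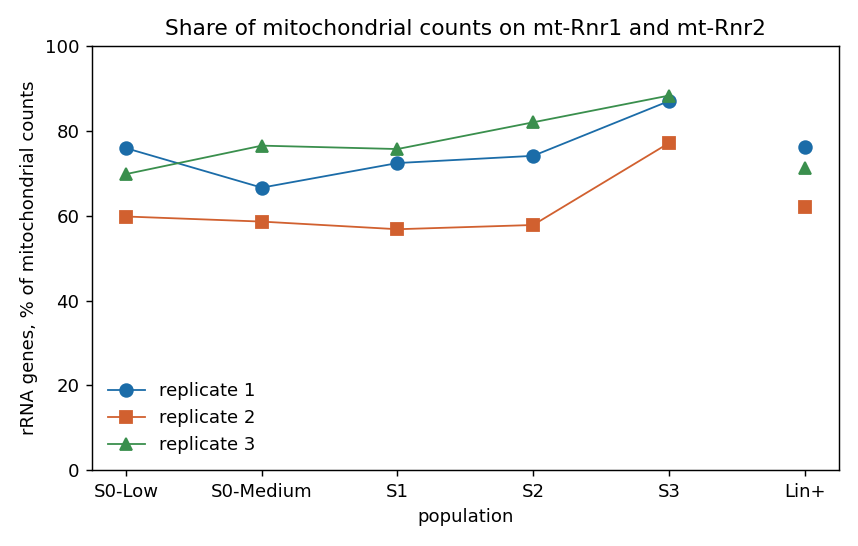
Share of mitochondrial counts on mt-Rnr1 and mt-Rnr2 (%) in each library, by population, with lines joining erythroid libraries of one replicate number. Each line reaches its highest point in S3 (87.0%, 77.1% and 88.3%), and replicate 2 is the lowest in all 6 populations.

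Along the genome the genes differed in level far more than the populations did. Per kilobase of gene, the rRNA genes had the highest median levels over the 18 libraries, at 8370 CPM per kilobase for mt-Rnr1 (small subunit rRNA) and 12800 for mt-Rnr2 (large subunit rRNA). Among the mRNA genes the medians were 2540 CPM per kilobase for mt-Nd1 (complex I), 2210 for mt-Co1 (complex IV), 2210 for mt-Cytb (complex III), 1250 for mt-Nd5, 1050 for mt-Nd2 and 557 for mt-Nd4 (all complex I). mt-Nd6, a complex I subunit and the only mRNA gene encoded on the light strand, had a median of 318 CPM per kilobase.

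These 7 mRNA genes, each with at least 900 counts in every library, held 99.9% of the mRNA counts. As a share of the summed level per kilobase of all 13, mt-Nd1 had 24.3% ± 2.70, mt-Co1 21.9% ± 4.09 and mt-Cytb 20.7% ± 1.81 (mean ± SD over 18 libraries of 6 populations). mt-Co1 lay within 1 SD of its own from both others, while mt-Nd1 and mt-Cytb differed by more than the SD of either. The order was not the same in all populations. Per kilobase, mt-Nd1 lay above mt-Co1 in every S0-Low library and below it in every S3 library. mt-Nd5, with 12.3% ± 1.75, and mt-Nd2, with 11.5% ± 2.15, also lay within each other's spread, below those 3 and above mt-Nd4 (5.53% ± 0.893) and mt-Nd6 (3.41% ± 1.11).

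The lowest mRNA genes were those inside the stretch copied on chromosome 1. A gene was scored by how many of its 31-base stretches also occur in the nuclear genome. All stretches did so for mt-Co2 and mt-Co3 (complex IV), mt-Atp8 and mt-Atp6 (ATP synthase) and mt-Nd4l (complex I). These 5 genes make up 23.2% of the mRNA gene length but held 0.0213% of the mRNA counts, and no library had more than 91 counts on any of them. Their median levels were 1.08, 0.835, 0.638, 0.709 and 0.281 CPM per kilobase in that order. By contrast, the 5 genes with under 20% of their stretches shared (mt-Nd1, mt-Nd2, mt-Nd5, mt-Nd6 and mt-Cytb) make up 48.1% of the length and held 68.5% of the counts. mt-Nd3, with 99.1% of its stretches shared, stood between, with a median of 38.8 CPM per kilobase and of 458 counts per library (28 to 2342).

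The nuclear copy genes that the mm9 gene annotation places in these stretches had few counts too. Copy genes absent from that annotation were not looked for, so their counts are not known here. Gm10222, within the chromosome 1 copy, had at most 79 counts in a library. On chromosome 2, in the copy at chr2:22442808-22446054, Gm13340 had 27 to 504 counts, Gm13339 1 to 106 and Gm13341 0 to 57. How the counting step shared or dropped such reads was not tested, so the levels of mt-Co2, mt-Co3, mt-Atp8, mt-Atp6, mt-Nd4l and mt-Nd3 are uncertain. Of the others, mt-Co1 shared 63.9% of its stretches and mt-Nd4 63.0%, and mt-Nd1 none. When counts were divided by the unshared length only, a calculation chosen after seeing the data that takes shared stretches to give no counts, mt-Co1 led the 7 genes with 39.0% of their summed level. On that scale mt-Nd1 came next, followed by mt-Cytb (14.5%), mt-Nd4 (9.71%), mt-Nd5 (9.61%), mt-Nd2 (8.75%) and mt-Nd6 (2.48%). mt-Nd3 had 3 stretches that were not shared, and the 5 fully shared genes held at most 91 counts in a library. Whether shared stretches gave counts was not tested, so this order is given only as an alternative.

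**Figure D3:**
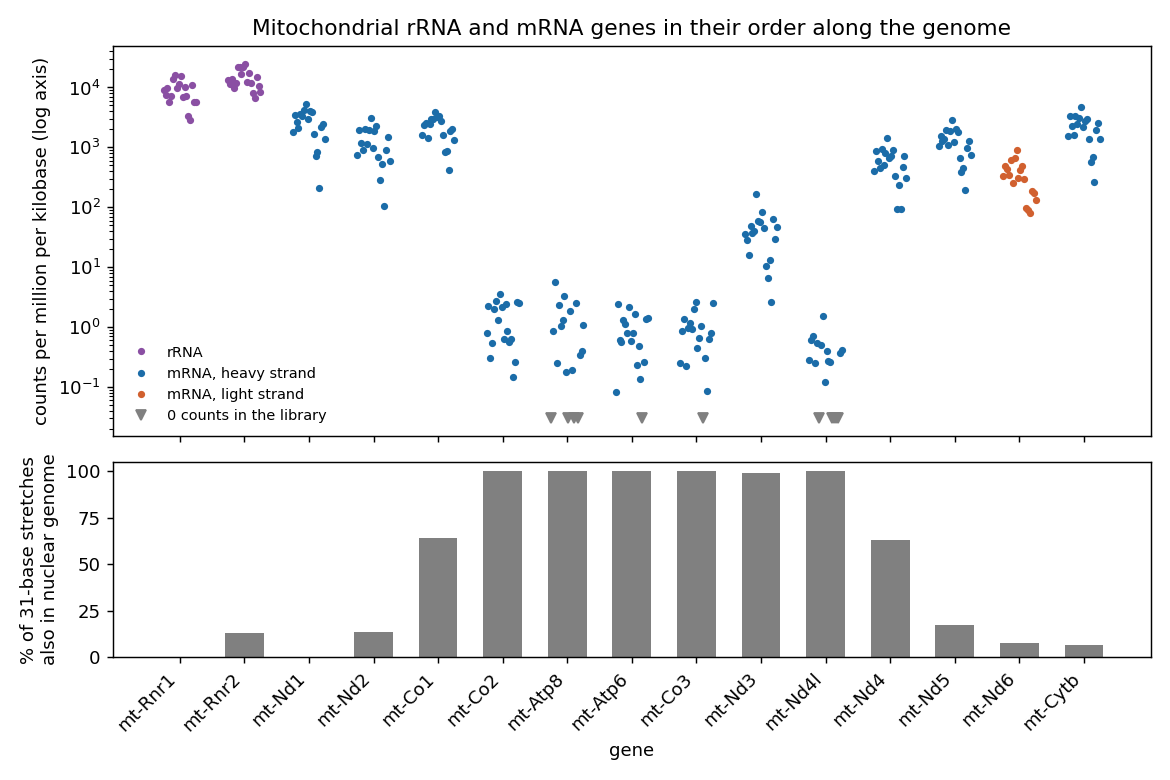
Level of the rRNA and mRNA genes in genome order: CPM per kilobase in each of 18 libraries (top, log axis, grey triangles for libraries at 0) and the share of each gene's 31-base stretches also found in the nuclear genome (bottom, %). The 5 genes at 100% have medians of at most 1.08 CPM per kilobase, while mt-Nd1, at 0%, has 2540.

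Between populations each gene was tested with edgeR's quasi-likelihood test across all genes kept by its filter, 16555 in the model of the 15 erythroid libraries and 17755 with Lin+. Values per library are TMM-scaled CPM, and a gene was called at a Benjamini-Hochberg adjusted p under 0.05. The filter kept 22 of the 37 genes in the erythroid model, namely both rRNA, 12 mRNA and 8 tRNA genes, and 23 with Lin+. Of the 15 left out of the first model, 14 were tRNA genes and 1 was mt-Nd4l.

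From S0-Low to S0-Medium edgeR called no mitochondrial gene, and 0 had an unadjusted p under 0.05. Of all genes edgeR called 0% higher, and 1.78% were higher at an unadjusted p under 0.05. DESeq2 called no mitochondrial gene either, and 0.169% of all genes higher. The log2 fold changes of the 7 well-counted mRNA genes ran from 0.01 to 0.25. From S0-Medium to S1 all 9 abundant rRNA and mRNA genes had positive log2 fold changes, from 0.60 to 0.78, but edgeR called none and 0 had an unadjusted p under 0.05. Of all genes edgeR called 0% higher, and 1.68% were higher at an unadjusted p under 0.05. DESeq2 called no mitochondrial gene either, and 0.199% of all genes higher. In the paired fit with the replicate block 4 of 22 had an unadjusted p under 0.05, all higher in S1, beside 3.85% of all genes, and 0 were called. For mt-Co1 the S0-Medium libraries held 2060, 3280 and 3780 CPM and the S1 libraries 4730, 5750 and 4530 CPM. Its groups did not overlap, with a log2 difference of 0.71 ± 0.34 (SE, edgeR adjusted p = 0.742). The same held for mt-Nd3, mt-Tp and mt-Ty (the tyrosine tRNA gene), making 4 of 22 genes that did not overlap and were higher in S1, against 6.96% of all genes.

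From S1 to S2 the log2 fold changes of the 7 mRNA genes were all negative, from -0.53 to -0.24. Again edgeR called 0 of 22 and 0 had an unadjusted p under 0.05, while 0% and 3.03% of all genes were lower by those rules. DESeq2 called no mitochondrial gene either, and 0.852% of all genes lower. In the paired fit with the replicate block 1 of 22 was lower in S2 at an unadjusted p under 0.05, and 0 were called. By that rule 3.75% of all genes were lower. The tRNA genes mt-Ta (alanine), mt-Tp and mt-Ty were lower in S2 without overlap, 3 of 22, against 7.77% of all genes.

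Of the 4 steps between neighbouring erythroid populations, edgeR made calls only from S2 to S3, where 8 of the 22 tested genes (36.4%) were called lower, against 6.09% of all genes. They were the 7 well-counted mRNA genes and the methionine tRNA gene mt-Tm. None was called higher, beside 3.26% of all genes. mt-Nd1 held 4130, 3690 and 1890 CPM in S2 and 924, 1160 and 341 CPM in S3. Its groups were apart, and the log2 difference was -2.0 ± 0.45 (adjusted p = 0.0130).

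mt-Cytb, the complex III subunit, held 3380, 3370 and 1810 CPM in S2 and 888, 1180 and 520 CPM in S3, a log2 difference of -1.72 ± 0.43 (adjusted p = 0.0204). mt-Co1, the catalytic subunit of complex IV, held 5520, 4200 and 2930 CPM in S2 and 1740, 1990 and 1110 CPM in S3, a log2 difference of -1.38 ± 0.34 (adjusted p = 0.0205). In both, replicate 3 was the lowest library of each population, and every S3 library lay below every S2 library.

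Among complex I subunits, mt-Nd5 held 3980, 3240 and 1400 CPM in S2 and 968, 1210 and 613 CPM in S3. mt-Nd2 held 2060, 2310 and 845 CPM in S2 and 398, 799 and 192 CPM in S3, and mt-Nd4 held 1050, 1220 and 538 CPM and then 177, 486 and 220 CPM. The groups did not overlap for any of these 3 genes, though S3 replicate 2 came close to S2 replicate 3. Their log2 differences were -1.62 ± 0.43 for mt-Nd5 (adjusted p = 0.0284), -1.90 ± 0.57 for mt-Nd2 (adjusted p = 0.0492) and -1.67 ± 0.47 for mt-Nd4 (adjusted p = 0.0358). mt-Nd6, from the other strand, held 234, 250 and 176 CPM in S2 and 68.1, 67.9 and 73.4 CPM in S3, a log2 difference of -1.65 ± 0.40 (adjusted p = 0.0176). This difference of the light-strand mRNA lay within the range of those of the 6 heavy-strand mRNAs.

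edgeR did not call the rRNA genes, although mt-Rnr1 was called lower when no filter on low counts was used (adjusted p = 0.0436). mt-Rnr1 held 16000, 6500 and 11400 CPM in S2 and 9540, 4710 and 4730 CPM in S3, and mt-Rnr2 held 42400, 18700 and 32300 CPM and then 25200, 18600 and 18600 CPM. Both genes overlapped between the populations, with log2 differences of -0.84 ± 0.43 (adjusted p = 0.228) and -0.58 ± 0.39 (adjusted p = 0.354). Whether the mRNA genes fell further than the rRNA genes was not tested. Over all mitochondrial genes tested, 11 of 22 were lower in S3 without overlap, against 14.2% of all genes.

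TMM scaling put the median log2 difference of all tested genes between S3 and S2 at -0.31, and scaling by library totals put it at -0.82. The median of the 7 mRNA genes was -1.67 and -2.20 on the same scales. Since a change of scaling shifts all genes alike, the second scale adds no support of its own. The count of 8 rested on several libraries. It was 1 (mt-Nd1) without S2 replicate 1, without S2 replicate 2 or without S3 replicate 3, where 3.02%, 2.92% and 3.49% of all genes were called lower. It was 3 without S3 replicate 1 (mt-Nd1, mt-Co1 and mt-Nd6), beside 4.60% of all genes, and 1 of 17 tested (mt-Nd6) when only these 6 libraries were fitted, beside 0.193% of all genes. All 7 log2 differences stayed negative. With the replicate number as a block, mt-Tt (threonine tRNA) was called too, at a log2 difference of -3.79 (paired edgeR adjusted p = 0.0179), against -2.74 and 0.211 without the replicate block.

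**Figure D4:**
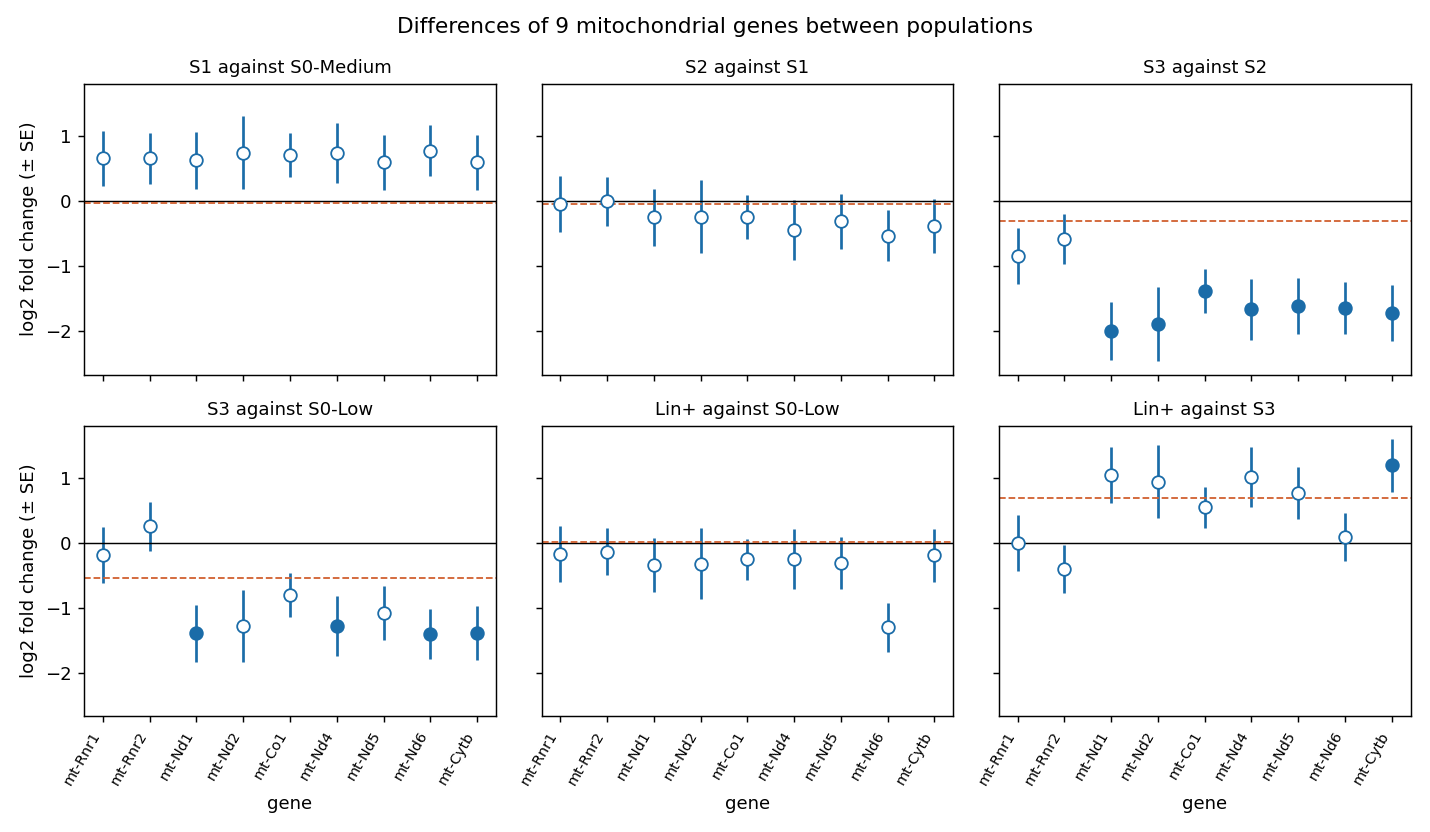
Log2 fold changes (± SE) of both rRNA genes and the 7 well-counted mRNA genes in 6 comparisons of populations; filled points passed an adjusted p of 0.05 and the dashed line is the median of all tested genes. All 7 mRNA genes are filled in S3 against S2, at -2.0 to -1.38, while both rRNA genes are open.

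Over the whole path, S3 against S0-Low, 5 of 22 genes were called lower (22.7%), a share near the 22.4% of all genes that were called lower. Other settings put it on either side of the background, at 45.5% beside 29.3% of all genes with DESeq2, 40.9% beside 24.8% with RLE factors and 4.55% beside 14.7% without S3 replicate 3, so nothing particular to mitochondrial genes is read from it. None was called higher, against 13.4% of all genes. The 5 were mt-Nd1 (log2 difference -1.39 ± 0.44, adjusted p = 0.0244), mt-Cytb (-1.39 ± 0.42, adjusted p = 0.0197), mt-Nd6 (-1.40 ± 0.39, adjusted p = 0.0132), mt-Nd4 (-1.28 ± 0.46, adjusted p = 0.0419) and mt-Tm. Of the 22 genes, 6 lay lower in S3 without overlap, against 25.9% of all genes.

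mt-Nd6 held 155, 216 and 180 CPM in S0-Low and 68.1, 67.9 and 73.4 CPM in S3, and it was called lower under all 15 alternative settings of this comparison. mt-Rnr1 and mt-Rnr2 had log2 differences of -0.18 (adjusted p = 0.770) and 0.26 (adjusted p = 0.615). The sign of the latter depended on the scaling, at -0.56 with library totals. The median of all genes was -0.54 with TMM scaling and -1.36 with library totals, and that of the 7 mRNA genes was -1.28 and -2.12. Without S0-Low replicate 2 or S3 replicate 3 mt-Nd6 was the 1 gene called (4.55%), beside 17.4% and 14.7% of all genes, and without S3 replicate 1 mt-Nd1, mt-Nd6 and mt-Cytb were (13.6% beside 17.3%).

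In Lin+ against S0-Low none of 23 genes was called by edgeR, against 0.22% of all genes called lower. 1 gene, mt-Nd6, had an unadjusted p under 0.05, against 2.96% of all genes lower by that rule. mt-Nd6 held 155, 216 and 180 CPM in S0-Low and 91.5, 74.9 and 57.5 CPM in Lin+, without overlap, a log2 difference of -1.30 ± 0.38 (adjusted p = 0.147). The paired fit with the replicate block called it, at -1.32 and an adjusted p of 0.0326, and DESeq2 called it at -1.25 (adjusted p = 0.0495). As a share of mRNA counts mt-Nd6 took 1.52% to 1.80% in S0-Low and 0.660% to 0.940% in Lin+. For the other 6 well-counted mRNA genes the groups overlapped.

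Against S3, Lin+ had 4 of 23 genes called higher (17.4%), against 28.2% of all genes called higher, and 6 that were higher without overlap, against 36.8% of all genes. With the replicate block 43.5% were called higher beside 32.1% of all genes, and with DESeq2 34.8% beside 33.2%, so the order of these shares depended on the setting. The called mRNA genes were mt-Cytb, at 2140, 2500 and 1290 CPM in Lin+ and 888, 1180 and 520 CPM in S3, and mt-Nd3, at 21.1, 8.70 and 13.8 CPM against 3.18, 6.89 and 1.61 CPM. Neither gene overlapped. Their log2 differences were 1.20 ± 0.41 (adjusted p = 0.0262) and 1.90 ± 0.75 (adjusted p = 0.04997), beside a median of all genes of 0.69, or 1.47 with library totals. mt-Cytb was called under 11 of 15 alternative settings, and not without Lin+ replicate 1, Lin+ replicate 2, S3 replicate 1 or S3 replicate 3. mt-Nd3 was called under 7, and not without any 1 of these 4 libraries or Lin+ replicate 3, with globin genes left out, without a filter or with only the 6 libraries compared. mt-Tm and mt-Ti (isoleucine) were the other called genes. mt-Ti passed the filter only with the Lin+ libraries, where it is high, so its call is not read as a difference. Without S3 replicate 1, S3 replicate 3 or Lin+ replicate 1, 1 gene (mt-Tm) was called (4.35%), beside 21.9%, 20.0% and 23.4% of all genes. Without Lin+ replicate 2 there were 2 (8.70% beside 22.8%), and without S3 replicate 2 there were 7 (30.4% beside 25.9%). Neutrophil and monocyte markers differed between Lin+ and both erythroid populations by the ranges given above, and their part in these differences was not tested.

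The tRNA genes, of 59 to 75 bases, held 26324 counts over all libraries, against 17150187 on rRNA and 7465351 on mRNA genes. As a share of all counts they were highest in S1 and lowest in S3, with means of 0.00527% (S0-Low), 0.00772% (S1), 0.00434% (S2) and 0.00133% (S3). The 5 most counted tRNA genes, mt-Tp, mt-Tt, mt-Tq, mt-Tw and mt-Ty, held 96.6% of the tRNA counts. mt-Tp held 300, 921 and 156 counts in S0-Low, 370, 868 and 145 in S2 and 95, 197 and 32 in S3. mt-Tt, its neighbour on the opposite strand, held 43, 906 and 268 counts in S0-Low, 117, 648 and 84 in S2 and 0, 67 and 14 in S3. In both genes replicate 2 was the highest of each of these populations, in counts and in TMM-scaled CPM. The libraries differ in depth, and scaled mt-Tt in S0-Low was 22.6 CPM in replicate 2 and 22.2 CPM in replicate 3.

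No count was found in any library for 6 tRNA genes, those for aspartate, lysine, glycine and arginine (mt-Td, mt-Tk, mt-Tg and mt-Tr), mt-Ts2 and mt-Tl2 (leucine). Among tRNA genes, both counted and uncounted ones shared stretches with the nuclear genome. mt-Tw and mt-Ty had all 31-base stretches shared and median counts of 165.5 and 60 per library, while mt-Ts2 had no shared stretch and mt-Tl2 9.8%. What set the tRNA counts apart was not tested.

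mt-Tm, for the tRNA that starts every mitochondrial protein, held 34, 17 and 14 counts in S2 and 0 in all S3 libraries. With 3 counts as the floor for S3 over the group, it was at least 13.8-fold lower in S3 than in S2 (edgeR adjusted p = 0.0471). This call was lost without S2 replicate 1, S2 replicate 2 or any 1 of the S3 replicates, without a filter and with only the 6 libraries compared. In S0-Low it held 26, 29 and 0 counts, so that S3 overlapped that population and was at least 10.7-fold lower over the group (adjusted p = 0.0276). That call was lost without S0-Low replicate 1, S0-Low replicate 2 or any 1 of the S3 replicates and without a filter, and the gene was not tested with only the 6 libraries. In Lin+ it held 22, 16 and 22 counts, at least 8.69-fold higher than in S3 (adjusted p = 0.0126). mt-Ti held 15, 3 and 26 counts in Lin+ and 0 in all S3 libraries. S0-Low replicate 3, the shallowest library, also held 0 counts of mt-Tq and mt-Tw, where both other S0-Low libraries held 496 and 518, and 216 and 223. The same library held 268 counts of mt-Tt and 156 of mt-Tp. What gave its zeros was not tested.

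Several proportions within the mitochondrial genes followed the replicate number in every population. The rRNA share of mitochondrial counts was lowest in replicate 2 in 6 of 6 populations. mt-Nd2 took 11.4% to 12.6% of mRNA counts in replicate 2, above 7.70% to 10.8% in replicate 1 and 6.24% to 9.19% in replicate 3, and was highest in replicate 2 in 6 of 6 populations. mt-Co1 took 27.4% to 36.1% in replicate 3 and was highest there in 6 of 6, against 20.7% to 28.9% in replicate 2. mt-Tt was lowest in replicate 1 in 6 of 6, at 0 to 0.251 counts per 1000 mRNA counts. What a replicate number stands for is not given in the sources used here, and its part in these values was not tested.

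Nuclear genes that serve the mitochondrial genome were described from 6 lists, for S3 against S0-Low, beside 22.4% of all genes lower and 13.4% higher. Of 10 tested genes for mitochondrial transcription 2 were called lower and none higher. Tfam, which packages mitochondrial DNA and helps start transcription, held 78.7 to 119 CPM in S0-Low and 31.2 to 65.6 CPM in S3 (log2 difference -1.11, adjusted p = 0.0169). This call was lost without S0-Low replicate 2, S3 replicate 1 or S3 replicate 3. Tefm, the elongation factor, held 23.0 to 47.4 CPM and then 0 to 9.73 CPM (-3.42, adjusted p = 0.0321). Polrmt, the polymerase, held 43.7 to 57.0 CPM and then 2.30 to 24.8 CPM without overlap, and was not called (-1.69, adjusted p = 0.0533), though it was called lower under 8 of 15 alternative settings, DESeq2 and RLE factors among them. The initiation factor Tfb2m (-0.43, adjusted p = 0.413) and the rRNA methyltransferase Tfb1m (0.82, adjusted p = 0.314) were not called.

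Of 36 tested genes for mitochondrial RNA processing, modification and decay, 7 were lower and 2 higher. Fastkd2, an RNA-binding protein needed for the large ribosomal subunit, held 37.2 to 56.4 CPM in S0-Low and 4.84 to 11.1 CPM in S3 (-2.41, adjusted p = 0.000512), and Fastkd1 fell too (-3.33, adjusted p = 0.0330). Mrm1, which methylates the large rRNA, rose from 17.0 to 24.3 CPM to 70.5 to 142 CPM (2.31, adjusted p = 0.00217), also with library totals (1.48). Fastk, linked to the stability of the mt-Nd6 mRNA, rose by 1.29 on the log2 scale (adjusted p = 0.0162), a call lost with library totals (0.48). Lrpprc and Slirp, which together stabilise mitochondrial mRNAs, had log2 differences of -0.05 (adjusted p = 0.937) and -1.04 (adjusted p = 0.223).

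Of 13 tested genes for mitochondrial DNA replication 2 were lower and 1 higher. Lig3, the mitochondrial DNA ligase, fell from 84.3 to 131 CPM to 5.57 to 35.1 CPM (-2.42, adjusted p = 0.00947), and Top1mt, the mitochondrial topoisomerase, held 0 to 19.5 CPM in S0-Low and 0 to 0.721 CPM in S3, with overlap (-5.57, adjusted p = 0.0380). Polg, the DNA polymerase, was higher (0.94, adjusted p = 0.0339), a call lost with library totals (0.13), and the helicase gene Twnk was not called (-1.64, adjusted p = 0.0691), though it was under 7 of 15 alternative settings.

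Of 73 tested mitochondrial ribosomal protein genes 7 were lower and none higher. Mrpl12 fell from 72.4 to 190 CPM to 3.04 to 33.2 CPM (-3.38, adjusted p = 0.00547) and Mrps35 from 49.3 to 60.7 CPM to 3.41 to 15.2 CPM (-2.58, adjusted p = 0.000958). With library totals 39 of 73 were lower, a larger share than the 37.6% of all genes. In the main fit the 7 of 73 were a smaller share than the 22.4% of all genes. Both the count and its place beside all genes thus depended on the scaling. Of 38 tested nuclear subunits of complexes III, IV and V 2 were lower and 1 higher. Atp5c1, the gamma subunit of ATP synthase, fell (-0.97, adjusted p = 0.0127), and Atpif1, an inhibitor of ATP synthase, rose (1.46, adjusted p = 0.00353), the latter not called with library totals (0.61).

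Of 10 nuclear regulators of mitochondrial genes 4 were lower and 3 higher. The coactivator genes Ppargc1b, at 15.2 to 113 CPM in S0-Low and at most 2.50 CPM in S3 (-6.31, adjusted p = 0.00175), and Pprc1, at 116 to 261 CPM and then 16.8 to 85.8 CPM (-2.01, adjusted p = 0.00740), both fell. Ppargc1a was at most 10.1 CPM in S0-Low and 0.151 CPM in S3, and Esrrg, a nuclear receptor gene, held 0.399 to 15.8 CPM in S0-Low and no count in S3. Both are among the 4 called lower, but they passed the filter mainly through S0-Low, where they are high, so these calls are not read as differences. Nrf1, a transcription factor for many nuclear genes of mitochondrial proteins, rose from 130 to 182 CPM to 335 to 463 CPM (1.40, adjusted p = 0.00170), and Gabpb2, a subunit of another such factor, rose from 157 to 176 CPM to 361 to 619 CPM (1.44, adjusted p = 0.00181). Both rises were not called with library totals (0.58 and 0.57).

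Of these nuclear genes, Fastkd2, Mrm1, Lig3, Pprc1, Mrpl12 and Mrps35 were called under all 15 alternative settings, and Ppargc1b under all 14 in which it could be fitted. Single libraries decided other calls. That of Tefm was lost without S0-Low replicate 2, S0-Low replicate 3 or S3 replicate 1, that of Fastkd1 without S0-Low replicate 1, S0-Low replicate 2 or S3 replicate 1, and that of Top1mt without any of the latter 3 or S3 replicate 3. Atp5c1 was not called without S3 replicate 2 or without a filter. With only the 6 libraries compared, Tefm, Fastkd1, Top1mt, Fastk and Polg were not called. Fastk and Polg also lost their calls without a filter. Polg lost it too with at least 10 counts required in every compared library. The call of Polg held under 7 of 15 alternative settings and that of Fastk under 9. Among the rises, Fastk was not called without S0-Low replicate 1, S0-Low replicate 3 or S3 replicate 2, and Polg not without S0-Low replicate 2, S0-Low replicate 3, S3 replicate 1 or S3 replicate 2. Over all settings the lists had 0 to 4 genes lower for transcription, 3 to 19 for RNA processing, 1 to 5 for DNA replication, 3 to 39 for ribosomal proteins, 1 to 9 for complex subunits and 1 to 5 for regulators, while the share of all genes called lower ran from 14.3% (no filter) to 37.6% (library totals).

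**Figure D5:**
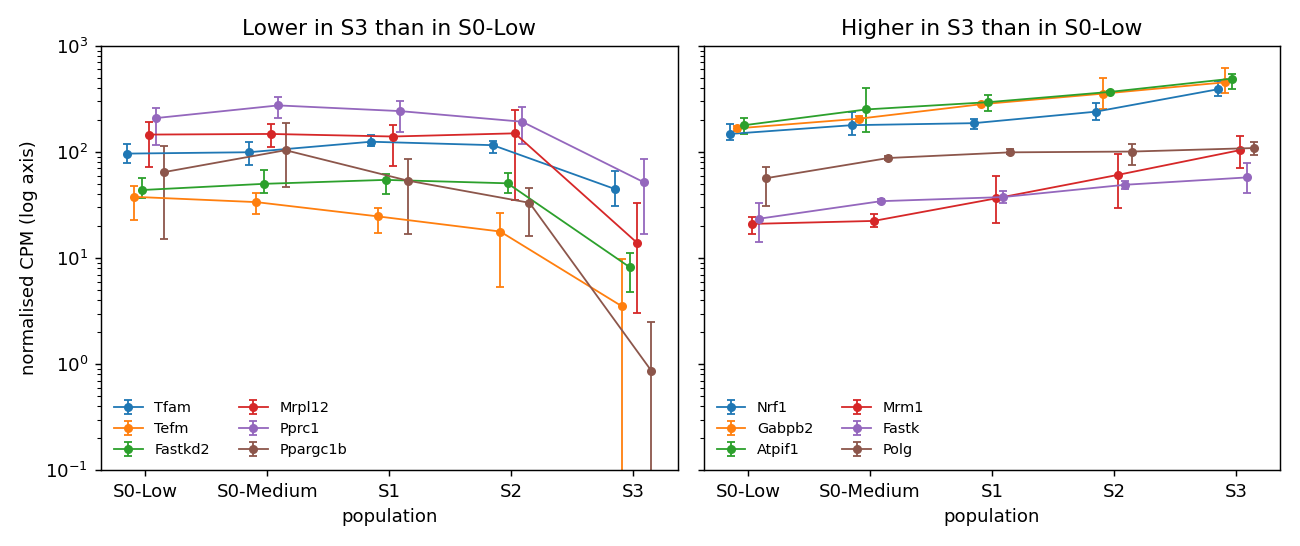
Normalised level (CPM, log axis) of named nuclear genes lower (left) and higher (right) in S3 than in S0-Low across the 5 erythroid populations; points are means of 3 libraries and bars run from the lowest to the highest library, to the foot of the axis where the lowest is 0. The mean of Mrpl12 is 150 CPM in S2 and 14.0 CPM in S3, and that of Nrf1 is 148 CPM in S0-Low and 390 CPM in S3.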

How the data were processed

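The authors sequenced 18 stranded 4sU-seq libraries and deposited whole-number counts per gene, not normalized and not pooled. The submitters' processing notes name kallisto 0.43.0 and GRCm38. The transcript set, the treatment of introns and the use of strand in counting are not given in the sources used here, and neighbouring genes overlap on the mitochondrial genome. The table lists 54232 identifiers, 32651 with a symbol, and no column was left without a sample. Sequences and nuclear copies come from mm9.

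Counts were analysed with edgeR 4.0.16 in R 4.3.3 (TMM, filterByExpr, two-sided quasi-likelihood tests, population as the only factor, Benjamini-Hochberg over all genes) and Python 3.11.15. The biological coefficient of variation shared by all genes was 0.795 with 15 libraries and 0.771 with 18. Replicate libraries differed beyond sampling noise (chi-square per degree of freedom of 79.3 or more). Shares have 95% Wilson intervals at most 0.0265 percentage points wide, which cover counting error only.

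Population and replicate number come from the titles. Deviations of same-numbered libraries correlated above 0.1 in every pair for S0-Medium and S0-Low (0.26 to 0.397), S1 and S0-Medium (0.468 to 0.553), S2 and S1 (0.464 to 0.55), S3 and S2 (0.171 to 0.315) and Lin+ and S0-Low (0.208 to 0.32), so the replicate number pairs the libraries there. They did not for S3 and S0-Low (0.0837 to 0.134) or Lin+ and S3 (0.0969 to 0.168).

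The mitochondrial genes and the nuclear lists were chosen with earlier results of these data known. Any mitochondrial gene could be named. Of the nuclear lists 12 genes were always to be named, plus the 2 largest called rises and 2 largest called falls per list whose mean in the higher population reached 100 normalized counts. Alternatives were DESeq2 1.42.0, RLE factors, library totals, other filters, a replicate block, only the 6 libraries compared, globin genes left out, rRNA genes left out of totals, each replicate left out, and, added after seeing the data, mitochondrial genes left out of the scaling and unshared length.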

Additional observations from a re-analysis of the deposited data

How the results depend on the processing

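For the 3 counts of called mitochondrial genes that were above 0, 24 of 45 alternatives stayed within 1.5 times the count and 21 moved. For S3 against S2 (8 lower) the count was 1 with only the 6 libraries compared (5.88% beside 0.193% of all genes) and 1 to 9 with a replicate left out. For S3 against S0-Low (5 lower) it was 10 with DESeq2 (45.5% of those tested, beside 29.3% of all genes), 9 with RLE factors (40.9% beside 24.8%), 11 with library totals (beside 37.6%), 8 without a filter (25.8% beside 14.3%) and 1 to 7 with a replicate left out. For Lin+ against S0-Low (0 lower) it was 1, mt-Nd6, with DESeq2 (4.35% beside 0.760%) and with only the 6 libraries compared (5.00% beside 0.333%). For Lin+ against S3 (4 higher) it was 8 with DESeq2 (34.8% beside 33.2%), 10 with library totals (43.5% beside 40.1%) and 1 to 7 with a replicate left out. The causes were not tested, beyond fewer samples where libraries were left out.

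With a replicate block, 9 genes were lower in S3 against S0-Low (40.9% beside 26.4%), 10 higher in Lin+ against S3 and 1 lower in Lin+ against S0-Low (beside 0.648%). For the first pair of these comparisons the numbers did not pair every library. In the comparisons whose numbers pair, the paired fit added mt-Tt in S3 against S2 and mt-Nd6 in Lin+ against S0-Low and changed no other call.

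Of the log2 fold changes, 256 stayed on the same side of the threshold, 25 became called, 48 lost the call and 1 reversed, mt-Rnr2 in S3 against S0-Low at -0.56 with library totals. With rRNA genes left out of total and share, mitochondrial genes took 1.38% (S0-Low), 1.49% (S0-Medium), 2.14% (S1), 1.60% (S2), 0.350% (S3) and 1.08% (Lin+). Taking 200 bases off each gene length moved the level of mt-Nd3 to 0.796% and of mt-Nd6 to 4.55%. Counts limit the tRNA genes, of which 10 had at most 9 counts in all libraries together.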
